A study of Drosophila melanogaster with 12 samples.

Results

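The interaction of sex with Nab2 genotype was measured in Drosophila melanogaster heads, taken from newly eclosed adults. For each gene the log2 change from wild type to Nab2 null was fitted in females and in males, and the male change was subtracted from the female change. A positive value, called the difference below, means that the change was higher in females. Of 17737 genes counted, 11223 passed a filter on low counts and make up the comparison. The results are ordered by gene class, and the classes are lists of genes with a shared function, gene family, gene type or chromosome arm.

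Each of the 12 libraries held total RNA from 60 pooled heads, depleted of ribosomal RNA. Wild-type flies carried the control allele Nab2pex41 and null flies the allele Nab2ex3, and each sex and genotype had 3 libraries. The 4 groups were thus wild-type females, null females, wild-type males and null males, all of the same age class and raised with no treatment given in the labels. Because heads are a mixture of tissues, fewer cells of a type and less RNA per cell cannot be told apart. The replicates are described as biological, but the animals and cultures behind them are not, so the p-values measure the spread between these libraries.

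Nab2 is a nuclear zinc finger protein that binds polyadenosine RNA and takes part in poly(A) tail control, splicing and export. In the fly, sex is set by a splicing cascade that runs from Sex lethal (Sxl) to transformer (tra) and doublesex (dsx), and males raise the output of their single X with the MSL complex and its roX RNAs. Head fat body, muscle, glia and neurons all carry sex-biased transcripts, of which the yolk proteins of the fat body are the best known.

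Libraries held between 23648813 and 30751922 counts. Nab2 counts were 1362 to 1697 in wild-type females and 13 to 32 in null females, against 1635 to 1946 and 11 to 82 in males, so both null groups matched their label. Null female library 1 stood apart. Its scaling factor was 0.8653, against 0.9653 and 0.9678 in null female libraries 2 and 3. The other groups had factors of 0.9961 to 1.0626, so null females had the lowest factors as a group. The 7SK small nuclear RNA took 1.91% of its counts, against 0.96% to 1.27% elsewhere. A weighting by library quality gave it 0.138, against 0.518 to 2.78. Medians of the classes described in depth are therefore given with and without it. Photoreceptor, neuron, glia and muscle markers were detected in all libraries, as the head label states. Summed photoreceptor markers, all 8 tested, were 24800 to 27900 CPM (counts scaled to a common library total) in wild-type females, 31600 to 42800 in null females, 24500 to 26600 in wild-type males and 27800 to 32600 in null males. Haemocyte markers, all 3 tested, were 239 to 290 and 121 to 145 CPM in females and 172 to 186 and 75.4 to 89.1 CPM in males, for wild type and then null. Gut markers, 2 of 5 tested and 1 at 0 in every library, were 12.2 to 17.7 and 23.4 to 31.4 CPM in females and 14.8 to 18.7 and 21.3 to 41.5 CPM in males. Each of these 3 sums separated the genotypes in both sexes, and their part in the results was not tested. Accessory gland and ovary markers summed to at most 0.463 CPM.

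A single gene, pgant4, passed an adjusted p under 0.05 in the difference, which is 0.00891% of the genes tested by edgeR. It encodes an enzyme that starts O-linked glycosylation of secreted proteins. Wild-type females showed 27, 38 and 31 counts, null females 12, 14 and 17. Wild-type males showed 6, 7 and 8 counts, null males 20, 18 and 19. The groups did not overlap within either sex, and the order of the genotypes was opposite. In females pgant4 fell by 1.10 on the log2 scale (SE 0.23) with an edgeR adjusted p of 0.00446. In males it rose by 1.68 (SE 0.27) with an edgeR adjusted p of 0.00222. The difference was -2.78 (SE 0.35, edgeR adjusted p 0.0483). Over the alternatives that adjusted p lay between 0.00151 and 0.31. The call in the difference was lost on leaving out any library other than wild-type female library 1, with values between -2.63 and -2.89. The other 9 pgant enzymes tested, all chosen after their values were seen, had differences between -0.35 and 0.22.

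At an unadjusted p under 0.05 stood 1297 genes, which is 11.6% of those tested. The female change was higher for 864 (7.7%) and lower for 433 (3.86%). Over the same set of tested genes, leaving out null female library 1 gave 472 higher and 427 lower. Leaving out null male library 3 gave 534 higher and 218 lower, and scaling by total counts alone gave 537 higher and 617 lower. Over all genes tested the median difference was 0.03. DESeq2 called 27 genes, limma with voom quality weights called 13, and edgeR called none without null female library 1.

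Where a gene passed in males, the female change mostly had the same sign. In females 2042 genes (18.2%) were higher in the null and 1531 (13.6%) were lower. In males 549 (4.89%) were higher and 565 (5.03%) were lower. Of the 549 genes higher in null males, 98.5% had the same sign in females, with median changes of 0.78 in males and 0.87 in females. Of the 565 lower genes, 94.2% had the same sign, with medians of -0.74 and -0.63. The genes called in females had smaller medians in males, at 0.23 against 0.58 for higher genes and -0.28 against -0.55 for lower genes. Each of these sets was chosen by the test in 1 sex, so its medians are a description. Among the 864 genes with a higher female change, 477 were above 0 in both sexes and 343 were above 0 in females and below 0 in males. Among the 433 with a lower female change, 236 were below 0 in females and above 0 in males, and 159 were below 0 in both.

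Besides pgant4, the genes of lowest p with a mean of at least 20 counts were the 3 yolk protein genes with the antisense gene CR45601, and CR44708, CG42807, NimB5, CG13793, TRAM and CG31077. None of these passed the adjusted test in the edgeR difference. DESeq2 called all of them there except CR44708, and limma with voom quality weights called Yp3, CR44708, NimB5, CG13793 and TRAM. NimB5, a secreted Nimrod family protein made by fat body, had 608, 510 and 515 counts in wild-type females, against 1129, 1038 and 970 in null females. Male libraries held 533, 630 and 605 counts in wild type, against 594, 556 and 533 in the null. The null females lay above all other libraries, and the difference was 0.83 (SE 0.15, edgeR adjusted p 0.186). TRAM, a membrane protein of the translocon of the endoplasmic reticulum, rose in females by 0.83 (SE 0.09, edgeR adjusted p 1.04e-04) and had a change of 0.18 in males (edgeR adjusted p 0.247). CG42807 fell in females by 0.82 on the log2 scale and had 0.37 in males, with 1620 to 2325 counts in wild-type females, 847 to 1229 in null females and 617 to 937 in all males. CR44708, a noncoding RNA on the X, fell in both sexes, from 43, 45 and 32 to 17, 23 and 24 counts in females and from 80, 91 and 91 to 17, 13 and 13 in males. Its null libraries lay between 13 and 24 in both sexes, and the wild-type males were the highest group. CG31077 fell in females from 553, 341 and 614 counts to 9, 7 and 6. In males it had 24, 34 and 79 counts in wild type and 14, 11 and 6 in null, and the difference was -4.15 (SE 0.80, edgeR adjusted p 0.238). The male call for CG31077 was lost without wild-type male library 3, at -1.21, and without any of the null males, at -1.61 to -2.12.

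Gene classes were compared by the median difference of their members. Of 60 lists, 57 had at least 3 members tested. A class was described in depth where its median lay at least 0.25 from the median of all genes, or where at least 25% of its members had an unadjusted p under 0.05 in 1 direction, and 18 lists met this. The median was positive in 12 and negative in 6. The other 39 lists had medians between -0.21 and 0.27. Among these 57 lists yolk proteins had the highest class median, at 3.77, and Tweedle cuticle proteins and Hsp70 copies the lowest, at -0.95 and -0.93. Apart from pgant4, no list member was called in the difference by edgeR.

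**Figure D1:**
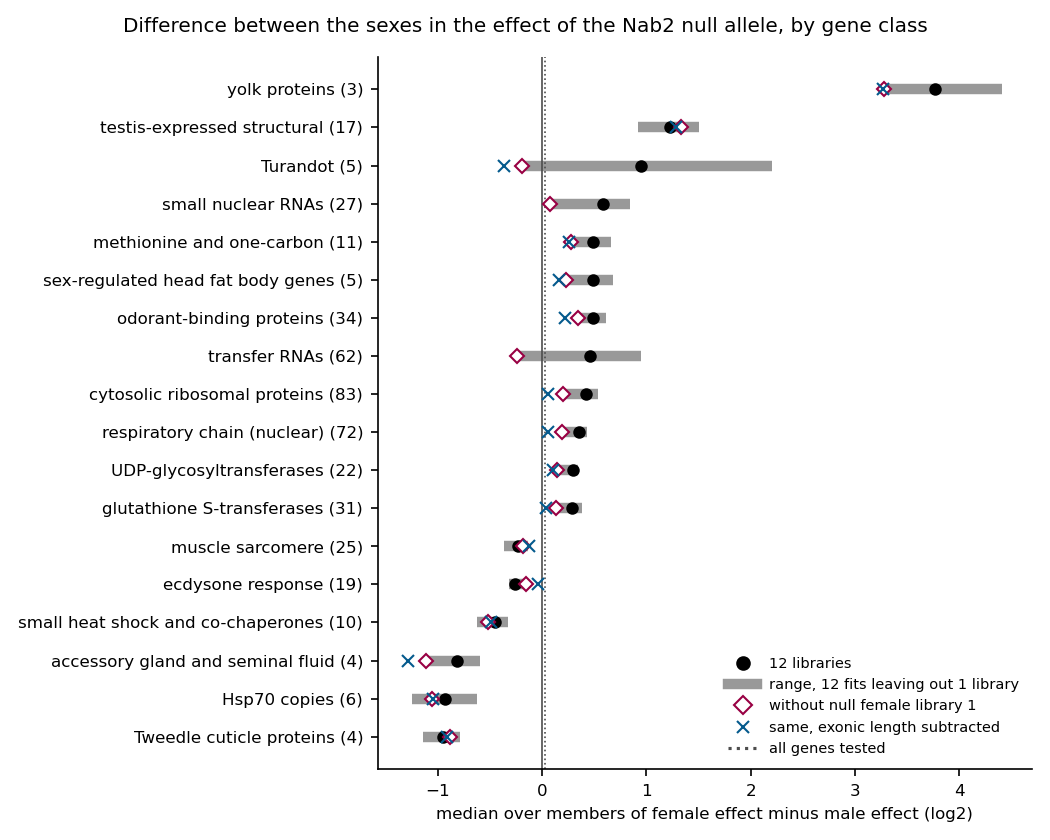
Median difference (female effect minus male effect, log2) of the 18 gene lists described in depth, with the number of members tested in parentheses. Black points use all 12 libraries, grey bars span the 12 fits that leave out 1 library, diamonds leave out null female library 1, crosses also subtract the median of genes of like exonic length, and the dotted line is the median of all genes; yolk proteins stand highest at 3.77, and the Turandot, small nuclear RNA and transfer RNA points move close to or below 0 without that library.

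All 3 yolk protein genes rose in null females, and none passed the edgeR test in males with all libraries. They encode secreted, lipase-like proteins that the adult female fat body makes for the egg. Yp3 had 22431, 8668 and 5768 counts in wild-type females, against 277634, 138311 and 166074 in null females. The male values were 514, 961 and 776 counts for wild type, then 871, 875 and 676 for the null. Every null female library lay above every wild-type female library, and the male groups overlapped. Yp1 went from 29623, 18737 and 14611 counts to 187443, 118393 and 151734 in females. Wild-type males showed 28, 302 and 210 counts, null males 28, 51 and 62. Yp2 went from 27439, 19718 and 18367 to 104132, 70244 and 94029 in females, while wild-type males showed 117, 381 and 461 and null males 88, 149 and 177. For both genes the male groups overlapped, with wild-type male library 1 at or below most null male libraries.

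The log2 change in females was 4.15 (SE 0.45) for Yp3, 2.98 (SE 0.50) for Yp1 and 2.13 (SE 0.36) for Yp2, each called by edgeR. In males the changes were 0.38 (SE 0.41), -1.62 (SE 0.60) and -0.92 (SE 0.40), none of them called by edgeR with all libraries. DESeq2 called Yp1 lower in null males, at -1.6 (DESeq2 adjusted p 0.0327). The difference was 3.77 (SE 0.58, edgeR adjusted p 0.182) for Yp3, 4.60 (SE 0.77, edgeR adjusted p 0.184) for Yp1 and 3.05 (SE 0.54, edgeR adjusted p 0.184) for Yp2. DESeq2 called all 3 in the difference, with adjusted p of 0.000128, 1.66e-05 and 0.000436. The median over the 3 was 3.77, and 3.28 without null female library 1. Without wild-type male library 1, edgeR called Yp1 and Yp2 in the difference, at 5.09 and 3.42, and lower in null males, at -2.11 and -1.29. Without wild-type female library 1 it called Yp3, at 4.41. The noncoding gene CR45601 lies antisense to Yp1, and the strand setting of the counting is not given in the sources used here, so its reads and those of Yp1 may not be separated. Its difference was 4.41 (SE 0.75).

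Of 5 sex-regulated head fat body genes, 4 rose in females and 2 in males, against 18.2% and 4.89% of all genes. The female count was 3 without null female library 1. The satiety peptide gene fit, chosen after its values were seen, had 223, 23 and 19 counts in wild-type females, against 7689, 2702 and 3511 in null females. Male libraries held 3, 11 and 4 counts in wild type, against 263, 43 and 130 in the null. All null libraries of each sex lay above the wild-type libraries of that sex. The change was 5.90 in females and 4.82 in males, and the male call was lost on leaving out any male library other than null male library 2, with values between 4.12 and 5.51. Obp99b rose by 1.40 in females and 1.79 in males. The gene takeout (to) rose by 1.05 in females (edgeR adjusted p 0.0434) and had 0.29 in males. Its female call was lost on scaling by total counts, at 0.92. Among females it was also lost without null library 1 or 2 or wild-type library 2 or 3, at 0.78 to 1.10. Among males it was lost without wild-type library 2 or any null library, at 1.05. The lipase-like sxe2 rose by 1.13 in females and had 0.64 in males (edgeR adjusted p 0.131), a call made there, at 0.85, without null male library 2. The P450 gene Cyp4d21 had -0.25 in females and 0.32 in males, neither called. The median difference of the 5 was 0.49, and 0.23 without null female library 1. Summed markers of head fat body, of which 3 of 5 are the yolk proteins, were 2680 to 4840 CPM in wild-type and 19200 to 33700 CPM in null females, and 1170 to 2590 and 2290 to 5200 CPM in males. All 5 were detected, and the part of fat body content in these results was not tested.

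**Figure D2:**
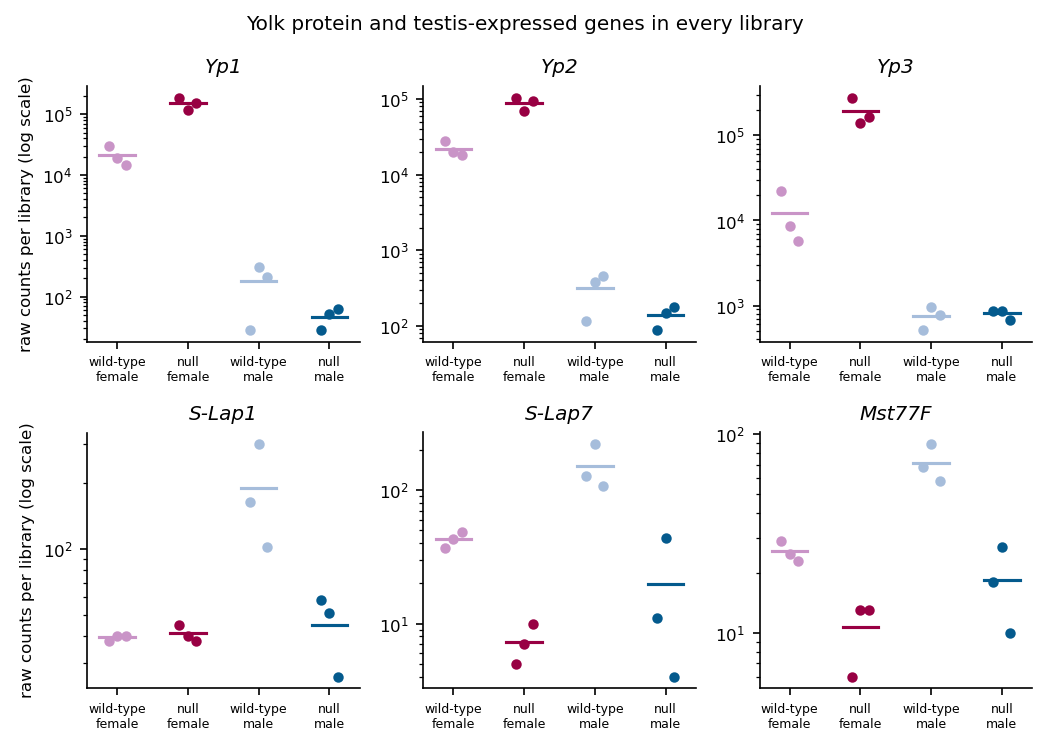
Raw counts (log scale) of 3 yolk protein genes and 3 testis-expressed genes in each library, with points for libraries and bars for group means. Null females lie above wild-type females for all 3 yolk protein genes while the male groups overlap, and for S-Lap1, S-Lap7 and Mst77F wild-type males are the highest group.

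Heat shock genes rose in both sexes, with lower fitted changes in females than in males and no call in the difference. Hsp70 proteins are chaperones made after heat or protein damage, and the small heat shock proteins and co-chaperones hold or hand over unfolded proteins. All 6 Hsp70 copies rose in both sexes, with a median change of 2.37 in females and 3.59 in males. The copies are near-identical, so reads may be split among them with error. All 6 differences were below 0, with a median of -0.93, and 2 of 6 (33.3%) had an unadjusted p under 0.05, against 3.86% of all genes in that direction. The median was -1.06, with 4 of 6, without null female library 1. It was -0.62, with 0 of 6, without wild-type female library 1, and 1 of 6 stood under that p without null female library 3, null male library 1 or 3, or wild-type male library 1.

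Hsp70Bb had 397, 210 and 260 counts in wild-type females, against 1479, 1865 and 1502 in null females. The male values were 140, 186 and 223 counts for wild type, then 1979, 1065 and 2147 for the null. Null females and null males overlapped, as did the wild-type groups, of which males held the 2 lowest libraries. Its difference was -0.94 (SE 0.36, edgeR adjusted p 0.427). Across the class, the level relative to its mean over libraries was -0.63, -1.24 and -1.12 in wild-type females and -2.11, -2.21 and -1.53 in wild-type males. In null libraries it was 1.69, 1.63 and 1.13 in females and 1.62, 1.2 and 1.6 in males. The sexes thus overlapped in the null and stood apart in wild type.

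Of 10 small heat shock and co-chaperone genes tested, 7 rose in females and 9 in males, against 18.2% and 4.89% of all genes. Of the 10, 9 had a difference below 0. The median difference was -0.45, and -0.52 without null female library 1. Hsp27 went from 87, 72 and 62 to 186, 361 and 346 counts in females and from 55, 55 and 93 to 571, 351 and 447 in males. It rose by 2.07 (SE 0.25) in the female fit and by 3.01 (SE 0.26) in the male fit. The cytosolic chaperone Hsp83 rose in males by 0.61 (SE 0.12, edgeR adjusted p 0.00735) and had 0.08 (SE 0.12) in females. Wild-type females stood at 2230 ± 159 CPM (SD, n = 3), null females at 2350 ± 192 CPM, wild-type males at 1290 ± 75.0 CPM and null males at 1970 ± 292 CPM (SD, n = 3 each). Hsp68 rose by 3.04 in females and 3.72 in males. The differences were -0.94 for Hsp27, -0.53 for Hsp83 and -0.68 for Hsp68, none called by edgeR.

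**Figure D3:**
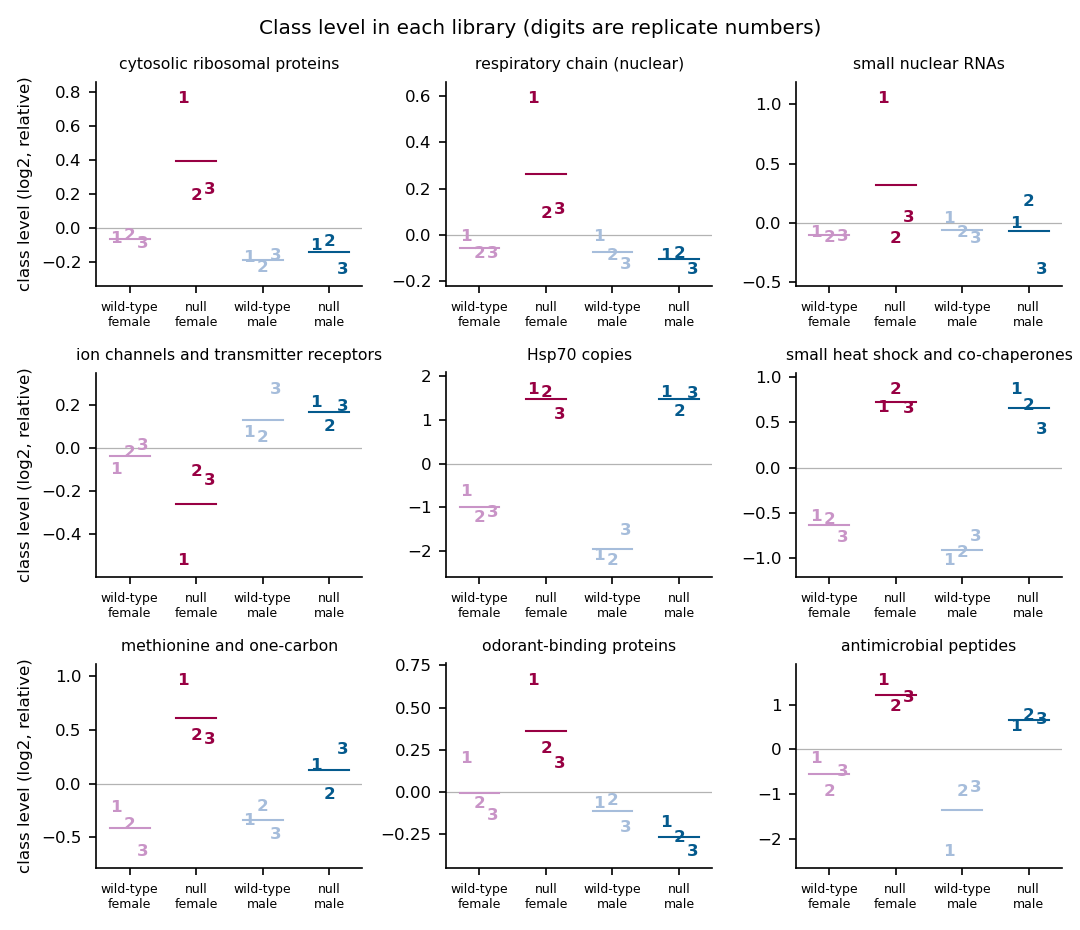
Level of 9 gene classes in each library, as the median over members of log2 CPM minus the gene's mean over the 12 libraries, with digits for replicate numbers and bars for group means. Null female library 1 is highest for ribosomal proteins, respiratory chain and small nuclear RNAs, at 0.76, 0.59 and 1.05, while for both heat shock classes the null libraries of the sexes overlap and wild-type males are below most or all wild-type females.

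Methionine and one-carbon genes, which supply methyl groups and folate intermediates, had higher median changes in females than in males, with no member called in the difference. Of 11 tested, 9 rose and 1 fell in females, against 18.2% and 13.6% of all genes. In males 5 rose, against 4.89% of all genes. Leaving out null female library 1 raised the male count to 7. It was 2 on leaving out null male library 3, and 3 for null male library 1 or wild-type male library 1 or 3. The median change was 1.03 in females and 0.52 in males, and the median difference was 0.49, with 10 of 11 above 0. At an unadjusted p under 0.05 stood 2 of 11, both higher in females (18.2% of the list, against 7.7% of all genes). The fall in females was that of thymidylate synthase, Ts, at -0.88. The median difference was 0.28 without null female library 1, and subtracting the length trend described below gave 0.26 with or without that library.

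Serine hydroxymethyltransferase (Shmt) had 6507, 5192 and 3994 counts in wild-type females, against 15410, 10056 and 9743 in null females. Wild-type males showed 5438, 6456 and 5067 counts, null males 6766, 6034 and 7422. The null females lay above all other libraries and the male groups overlapped. Its difference was 0.76 (SE 0.29, edgeR adjusted p 0.427). CG34424, listed as the folate enzyme Mthfs, had the highest difference of the list, at 1.18 (SE 0.35, edgeR adjusted p 0.427). Its 3060 counts in null female library 1 were above the 1672 and 1645 of its replicates. Glycine N-methyltransferase (Gnmt), chosen after its values were seen, rose by 3.59 in females and 2.63 in males. The folate enzyme Nmdmc rose by 1.61 in females and by 0.98 in males. The male call of Nmdmc was lost without null male library 3 (0.90) or wild-type male library 1 (1.05) or 3 (0.77).

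Odorant-binding proteins, small secreted carriers of hydrophobic molecules, tended to higher changes in females. Of 51 listed, 34 were tested and 30 had a difference above 0, against 53.5% of all genes. At an unadjusted p under 0.05, 9 of 34 were higher in females (26.5%, against 7.7% of all genes) and none was lower, and without null female library 1 the counts were again 9 and 0. Leaving out other libraries gave 7 to 20 higher, with 20 on omitting wild-type female library 1 and 14 on omitting wild-type male library 3. The class median was 0.49, 0.34 without null female library 1, and 0.22 with the length trend also subtracted. In females 14 rose and 2 fell, against 18.2% and 13.6% of all genes. In males 4 rose and 4 fell, against 4.89% and 5.03% of all genes. Over the alternatives the male count that rose ran from 3 to 7. The male count that fell ran from 1, without null male library 3, to 10, with the replicate number as a block, and was 8 by DESeq2 and by voom.

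Obp99a had 217, 76 and 37 counts in wild-type females, against 1637, 1006 and 995 in null females. Wild-type males showed 16 to 30 counts, null males 18 to 20. The null females stood above every other library, and the male groups overlapped. The difference was 3.62 (SE 0.82, edgeR adjusted p 0.371), and edgeR called it without wild-type female library 1, at 4.46. Obp56d and Obp56e rose in females by 1.24 and 1.34 and had 0.22 and 0.14 in males, and their differences were 1.03 (SE 0.27) and 1.20 (SE 0.32). Obp8a rose in both sexes, from 33, 22 and 27 to 457, 339 and 307 counts in females and from 52, 45 and 29 to 247, 138 and 151 in males.

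Obp83a, an abundant protein of the olfactory sensilla chosen after its values were seen, had 3132, 1222 and 779 counts in wild-type females, against 698, 1011 and 601 in null females. Male libraries held 2415, 1659 and 1196 counts in wild type, against 911, 446 and 334 in the null. Its changes were -1.02 in females and -1.41 in males, neither called by edgeR with all libraries. The male change was called by voom, at -1.56. It was also called by edgeR on leaving out null male library 1 (-1.91) or wild-type female library 1 (-1.41). The odorant receptor list, which marks antennal and palp neurons, ran from 0.27 to 1.34 in wild-type females, from -0.25 to 0.29 in null females, from -0.10 to 0.40 in wild-type males and from -1.17 to -0.23 in null males, with replicate 1 highest in each group. The part of antennal content in the odorant-binding result was not tested.

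Ribosomal protein and respiratory chain genes had the most members with a low p. Of 83 cytosolic ribosomal protein genes tested, 61 rose in females and none in males, against 18.2% and 4.89% of all genes. The difference was above 0 for 75, against 53.5% of all genes. At an unadjusted p under 0.05, 45 of 83 were higher in females (54.2%, against 7.7% of all genes) and 1 was lower. Of 72 nuclear genes of the respiratory chain, 26 rose in females and none in males, and 29 (40.3%) were higher in females at that p. Class medians of the difference were 0.42 and 0.35. Mitochondrial ribosomal proteins, at 0.27 and at 0.13 without null female library 1, lay below the limit for description in depth.

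Null female library 1 had the highest level of both classes. RpL37a, of the large subunit, had 11952, 10599 and 9273 counts in wild-type females, against 20363, 15390 and 15391 in null females. The male values were 11160, 13090 and 12238 counts for wild type, then 11519, 11418 and 9507 for the null. Null females lay above all others, and library 1 was the highest of them. Wild-type females stood at 403 ± 11.6 CPM (SD, n = 3), null females at 692 ± 187 CPM (SD, n = 3). The small-subunit protein sta rose by 0.59 in females, a value of 0.32 once null female library 1 was left out. RpL17 and RpL35 likewise went from 0.57 to 0.37 and from 0.66 to 0.42. Across the class the levels in null females were 0.76, 0.19 and 0.23, against -0.24 to -0.04 in the other 9 libraries. For the respiratory chain they were 0.59, 0.09 and 0.11, against -0.15 to -0.01. Null females were thus above all other libraries for both classes also when library 1 is set aside.

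Counts of members depended on single libraries more than the medians did. Without null female library 1, 31 of 83 ribosomal protein genes were higher in females at an unadjusted p under 0.05, with a median of 0.20, and 12 of 72 respiratory chain genes, with a median of 0.19. Leaving out null male library 3 gave 9 of 83 and 4 of 72, with medians of 0.39 and 0.33. The counts were 17 and 6 without wild-type female library 3 and 21 and 11 without library 2 of that group. Among wild-type males, leaving out library 3 gave 17 and 16, and library 1 gave 20 and 6. Leaving out wild-type female library 1 gave 30 and 25, wild-type male library 2 gave 29 and 18, null male library 1 gave 34 and 16, and null male library 2 gave 34 and 15. The counts were higher, at 63 and 39, without null female library 2, and at 56 and 40 without null female library 3. Respiratory chain genes that rose in females numbered 11 without null female library 1, 3 without wild-type female library 2 and 4 without wild-type female library 3. For ribosomal protein genes the last of these counts was 27, and 36 without wild-type female library 2. The complex I subunit ND-18 rose by 0.37 in females, or 0.23 once null female library 1 was left out. The female calls of ND-B14.5A, ATPsynF and ND-B17 were lost without null female library 1, at 0.23, 0.20 and 0.19. They were also lost without wild-type female library 2 (0.36, 0.35 and 0.41) or 3 (0.43, 0.39 and 0.41). Scaling by total counts alone left both class medians positive, at 0.33 and 0.26. With that scaling 34 of 83 and 14 of 72 members were higher in females at an unadjusted p under 0.05, and 11 respiratory chain genes rose in females.

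Across protein-coding genes, the difference was lower at greater exonic length. In the shortest of 4 equal groups of genes by length the median was 0.24, and 426 of 2554 (16.7%) were higher in females at an unadjusted p under 0.05, with 44 lower. In the longest group the median was -0.16, with 30 higher (1.18%) and 172 lower (6.74%). Over 20 bins of length the median went from 0.34, at a median length of 514 bases, to -0.18 at 10064 bases. The change in females went from 0.40 to -0.19 over the same bins, and that in males from 0.07 to -0.01. Without null female library 1 the difference went from 0.17 to -0.10.

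By library, the shortest group stood at 0.40, 0.11 and 0.12 in null females and between -0.13 and 0.03 in the other libraries. The longest group stood at -0.35, -0.08 and -0.09, against -0.01 to 0.15. Libraries 2 and 3 of the null females thus lay outside the other groups in the same direction as library 1, at smaller size. Ribosomal protein genes have a median exonic length of 921 bases and respiratory chain genes of 862. With the length trend subtracted their medians were 0.18 and 0.14, and 0.06 for both without null female library 1. The subtraction was chosen after seeing the data.

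Long-gene classes lay on the other side. Ion channels and transmitter receptors, with a median exonic length of 5425 bases, had a median of -0.21. The difference was above 0 for 7 of 55 members, against 53.5% of all genes. Synaptic vesicle and active zone genes, at 5989 bases, also had a median of -0.21. With the length trend subtracted and null female library 1 left out, these were -0.05 and 0.00, and -0.12 and -0.09 without that library alone. Summed neuron markers, all 5 tested, were 1610 to 1690 CPM in wild-type females, 1100 to 1490 in null females, 1610 to 2250 in wild-type males and 1680 to 1840 in null males. The part of neuron content, and what sets the length trend, was not tested.

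**Figure D4:**
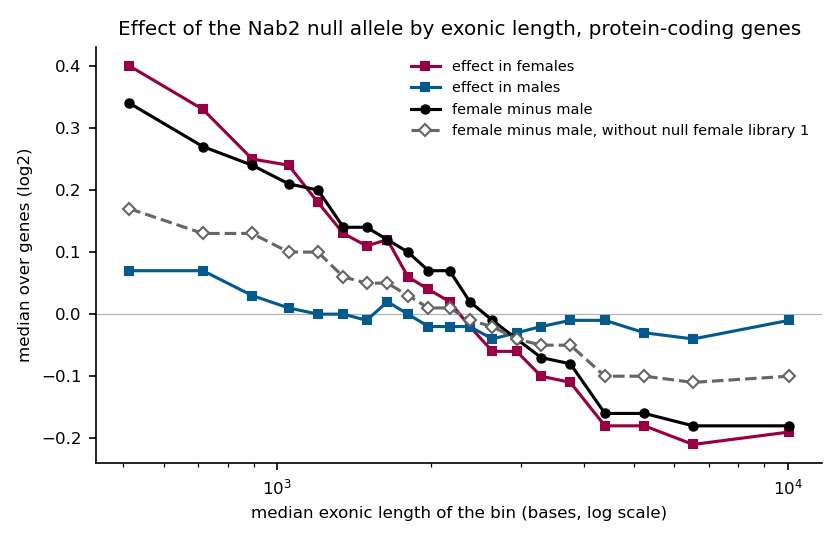
Median change from wild type to Nab2 null in females and males, and their difference, in 20 bins of protein-coding genes by exonic length (log axis, bases). The difference falls from 0.34 to -0.18 with length, and from 0.17 to -0.10 without null female library 1, while the change in males stays between -0.04 and 0.07.

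Class medians of small RNAs depended on null female library 1, and that of transfer RNAs on null male libraries as well. Small nuclear RNAs, the RNA parts of the spliceosome, listed here with 7SK, had a median difference of 0.58 over 27 genes, and 0.08 without null female library 1. Levels were 1.05, -0.13 and 0.05 in null females and between -0.39 and 0.18 elsewhere. 7SK itself, which holds back transcription elongation, had 495841, 285477 and 303777 counts in null females, and its difference was 0.58 (SE 0.31, edgeR adjusted p 0.439). snRNA:U1:95Ca rose in females by 1.11, although the U1 copies are near-identical. Transfer RNAs had a median of 0.46 over 62 genes, and -0.24 without null female library 1. Small nucleolar and Cajal body RNAs had 0.25 and -0.20, in the same order. The transfer RNA median was 0.18 without null male library 3 and 0.95 without null male library 2. Transfer RNA copies share sequence too. The tRNA:Pro-CGG-2-3 gene rose by 1.40 in females, a call lost without null female library 1 (0.75) or wild-type female library 1 (1.37), 2 (1.36) or 3 (1.48).

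Detoxifying enzymes had small positive differences. Glutathione S-transferases, which join glutathione to reactive compounds, had a median of 0.29, with 27 of 31 above 0, against 53.5% of all genes. In females 18 rose and in males 10, against 18.2% and 4.89% of all genes. GstT4 rose by 1.14 (SE 0.08) in females and 0.69 (SE 0.08) in males. Wild-type females showed 2531, 2143 and 1971 counts, null females 4504, 4596 and 4750, while wild-type males showed 2510, 3228 and 2866 and null males 4047, 4022 and 3514. The null libraries lay above the wild-type libraries in both sexes, and its difference of 0.44 (SE 0.11) had an edgeR adjusted p of 0.403. GstE11 rose by 1.39 in females and 0.86 in males. UDP-glycosyltransferases had a median difference of 0.30 over 22 genes, with 5 higher (22.7%) and 1 lower at an unadjusted p under 0.05, against 7.7% and 3.86% of all genes. CG5999 rose in females by 3.50 (SE 0.53) and had 0.68 (SE 0.52) in males. It had 1485, 339 and 1321 counts in null females and 81 to 283 in all other libraries. The medians of these families were 0.13 and 0.14 without null female library 1, and that of cytochrome P450 genes went from 0.18 to 0.02.

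Testis-expressed genes fell for more members in males than in females, from low counts. The list holds sperm leucyl-aminopeptidases (S-Lap), male-specific Mst transcripts and the testis tubulin betaTub85D. Of 34 listed, 17 were tested, and members seen in male libraries alone could pass the filter by being high there, so the counts and medians of this list are a description. In males 12 fell, against 5.03% of all genes, and in females 2 fell, against 13.6% of all genes. The male count was 5 on leaving out null male library 3 or wild-type male library 2, 7 for null male library 1 and 8 for wild-type male library 1. The female count was 1 without null female library 1 or wild-type female library 2 or 3. S-Lap1 showed 164, 301 and 102 counts in wild-type males, against 58, 51 and 26 in null males. Wild-type females showed 38, 40 and 40 counts, null females 45, 40 and 38. The male groups did not overlap and the female groups did, and the difference was 1.92 (SE 0.51, edgeR adjusted p 0.427). S-Lap8 and Mst33A had 0 counts in all 6 female libraries, so their difference carries the male change alone and is given no fold.

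S-Lap7 and Mst77F, chosen after their values were seen, fell in both sexes. S-Lap7 had 37, 43 and 48 counts in wild-type females, against 5, 7 and 10 in null females, while wild-type males showed 126, 220 and 107 and null males 11, 44 and 4. The genotypes did not overlap in either sex. Its changes were -2.47 in females and -2.65 in males, and the latter was -4.03 without null male library 2. Mst77F changed by -1.20 in females and -1.69 in males, and its female call was lost without null female library 1 (-0.99) or wild-type female library 2 or 3 (-1.20 each). The class median of the difference was 1.23, 1.33 without null female library 1, and 0.71 over the 11 members with more than 3 counts in some library of each sex. Summed testis markers, 4 of 5 tested, were 4.76 to 11.2 CPM in wild-type males, 1.91 to 3.32 in null males, 1.93 to 2.44 in wild-type females and 1.43 to 1.95 in null females. The part of testis RNA carried into the head samples was not tested.

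Several classes with a lower female change were small or mixed. Of 25 Tweedle cuticle proteins 4 were tested, and 3 had an unadjusted p under 0.05 with a lower female change, against 3.86% of all genes. The median was -0.95, and -0.88 without null female library 1. TwdlG went from 83, 76 and 77 to 21, 29 and 31 counts in females and from 93, 117 and 96 to 52, 65 and 68 in males. The genotypes did not overlap in either sex, and the changes were -1.48, called, and -0.46, not called (edgeR adjusted p 0.078). The difference was -1.02 (SE 0.23, edgeR adjusted p 0.343). TwdlE, chosen after its values were seen, rose by 1.28 in females and 2.76 in males, with at most 24 counts, and the female call was lost without null female library 2 (0.99) or wild-type female library 2 (0.94).

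Ecdysone response genes, driven by the steroid that times moults and eclosion, had a median difference of -0.26 over 19 genes. In females 6 fell and 2 rose, against 13.6% and 18.2% of all genes, and 3 fell without wild-type female library 3. The list is long-gened, with a median exonic length of 6544 bases, and the median was -0.08 with the length trend subtracted and -0.15 without null female library 1. The receptor EcR had 885, 1851 and 1736 counts in null females and 1760 to 2521 in all wild-type and male libraries. Null female library 1 alone stood low. ImpL3, lactate dehydrogenase, rose in females by 0.57 (SE 0.11) and had 0.03 in males.

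Muscle sarcomere genes had a median of -0.23 and a mean of -0.02 over 25 genes, and a median of -0.18 without null female library 1. TpnC41C, a troponin C, rose in females by 1.11, from 1368, 863 and 887 to 2387, 1946 and 1943 counts, and had 0.35 in males. TpnC73F, another troponin C, had 189, 256 and 274 counts in wild-type females, against 53, 117 and 96 in null females, while wild-type males showed 121, 175 and 329 and null males 115, 243 and 240. Its female call at -1.40 was lost without null female library 1 (-1.20) or wild-type female library 2 (-1.35) or 3 (-1.22). In females 1 member rose and 4 fell, against 18.2% and 13.6% of all genes. The count that fell was 0 without null female library 1 or wild-type female library 2 or 3, 7 without null female library 3, and 8 by DESeq2. Summed muscle markers, all 5 tested, were 9720 to 11800 CPM in wild-type and 6380 to 9320 CPM in null females, and ran from 6850 to 9520 CPM across both male groups, and their part was not tested.

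Turandot genes, secreted stress peptides, varied by library more than by group. TotA had 24136, 5186 and 4257 counts in wild-type females, against 22346, 5561 and 4378 in null females. Wild-type males showed 9567, 11423 and 2595 counts, null males 8558, 1454 and 1720. Groups overlapped in both sexes. The median difference of 5 genes was 0.95, with a standard deviation of 1.28 between replicates, and -0.19 without null female library 1. Leaving out wild-type female library 1 instead gave 2.04, and leaving out null male library 1 gave 2.20. No member was called in either sex. Accessory gland and seminal fluid genes had 4 of 46 tested, with a median of -0.82 at low counts, and -1.11 without null female library 1. Acp53C14c alone reached a mean of 20 counts, with a difference of -0.44 (SE 0.36).

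Antimicrobial peptides and proteasome subunits had median changes of the same sign in both sexes. Antimicrobial peptides rose for 12 of 17 genes in females and 13 in males, against 18.2% and 4.89% of all genes. Their medians were 1.68 and 1.96, and the median difference was -0.10, or -0.23 without null female library 1. Proteasome subunits fell for 26 of 35 genes in females and 5 in males, against 13.6% and 5.03% of all genes, with medians of -0.57 and -0.37 and a difference of -0.15 with or without that library. These are differences in how many members passed, and the difference itself was called for none of them.

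The sex determination and dosage compensation genes had class medians of -0.15 and -0.06, and -0.06 and 0.02 without null female library 1. Sxl, the switch gene, had 10127, 7830 and 8015 counts in wild-type females, against 9573, 14879 and 14648 in null females. Male libraries held 5967, 7836 and 6815 counts in wild type, against 6079, 5482 and 5255 in the null. It rose in females by 0.65 (SE 0.11, edgeR adjusted p 0.00152) and had -0.03 (SE 0.11) in males. The difference was 0.68 (SE 0.15, edgeR adjusted p 0.371), and limma with voom quality weights called it, at 0.76 with an adjusted p of 0.018. The differences were -0.18 for tra, 0.05 for dsx and -0.04 for msl-2, each within 1 SE, and the signs for dsx and msl-2 depended on the scaling or the libraries kept. roX1 and roX2 had differences of -0.39 (SE 0.86) and -0.55 (SE 1.05). Wild-type female library 3 held 538 roX1 and 179 roX2 counts, against 43 and 104 and against 2 and 14 in the other wild-type females. Without that library both rose in null females, by 1.49 and 2.68. The differences were then 1.40 and 2.59, and neither difference was called in that or any other fit.

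By chromosome arm, the X held the largest share of genes with a higher female change. On the X 195 of 1791 genes (10.9%) were higher and 42 (2.35%) lower at an unadjusted p under 0.05. On arms 2L, 2R, 3L and 3R the shares were 6.90% to 7.65% higher and 3.30% to 4.61% lower. The median difference on the X was 0.05, and 0.00 to 0.03 on those arms. With 1 library left out the X held 122 to 274 higher and 21 to 95 lower genes. It held 122 higher and 47 lower genes without null female library 1, with a median of 0.03, and scaling by total counts alone gave 143 higher and 58 lower, with a median of -0.03. The median exonic length was 2358 bases on the X, against 1933 to 2115 on arms 2L, 2R, 3L and 3R. With the length trend subtracted the median difference was 0.04 on the X and -0.02 to -0.0 on those arms. The part of length in the shares on the X was not tested. The shares were compared as a description, with no test.

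**Figure D5:**
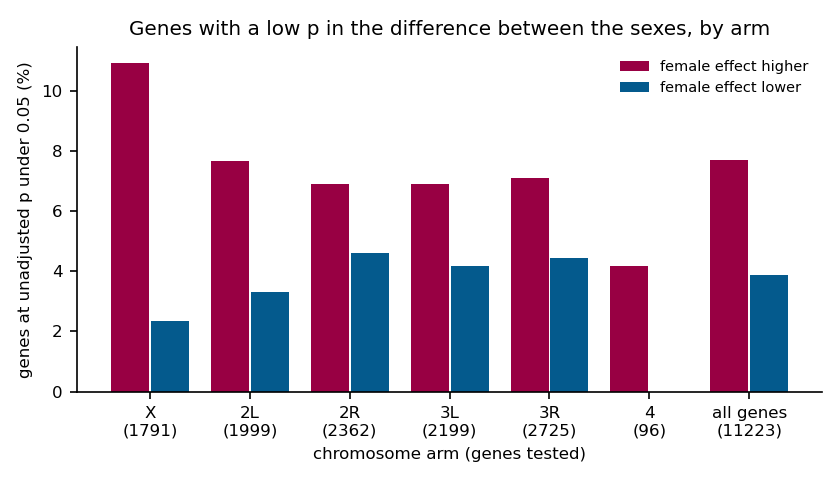
Share of genes tested (percent) with an unadjusted p under 0.05 in the difference between the sexes, by chromosome arm, with the number of genes in parentheses. The X has 10.9% with a higher and 2.35% with a lower female effect, against 7.7% and 3.86% over all genes.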

How the data were processed

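Each of the 12 deposited files held raw counts per gene for 17737 genes. The submitters' processing notes name STAR 2.5.2b-0, featureCounts 1.6.0.3, DESeq2 2.11.40.1 and the build BDGP6 for the authors' processing, and the strand setting of counting is not given in the sources used here. The count file of null male library 3 alone carries a remark on read orientation, and what it meant for counting is not given. An Ensembl annotation of BDGP6 matched 99.5% of the symbols and gave current names, gene type, arm and exonic length. In R 4.3.3, edgeR 4.0.16 kept 11223 genes by filterByExpr over the 4 groups, scaled libraries by TMM and fitted a single quasi-likelihood model to the 4 group means. Effects of genotype were taken within each sex, and then the female effect minus the male effect. P-values were adjusted over all genes tested by the Benjamini-Hochberg method, with a call at an adjusted p under 0.05. Standard errors (SE) follow from the fitted value and its F statistic, as the value's size over the root of F. Fitted changes carry a prior count of 0.125, and CPM are TMM-scaled.

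A class level per library is the median over members of log2 CPM (prior count 0.5) minus each gene's mean over the 12 libraries. Classes are described by counts and medians, with no test. The genes, classes and lists were chosen with earlier results of these data known. Genes named by rule were Nab2, 6 genes of the sex pathway, the yolk proteins, called genes, the 10 of lowest p, and up to 4 members of lowest p per class described in depth, all of the last 2 kinds with a mean of at least 20 counts. Other genes are said to be chosen after their values were seen.

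Alternatives were RLE and total count scaling, no filter, DESeq2 1.42.0, limma 3.58.1 voom with quality weights, the replicate number as a block, each library left out, class means, and members with a mean of at least 20 counts. Subtraction of the length trend in 20 bins and the limit of more than 3 counts in each sex were added after seeing the data. On data simulated for the difference over 11097 genes, 76 of 100 genes with a log2 difference of 1 and 95 of 100 with 2 were called, with 5 false calls. The simulated counts had each gene's fitted spread and a single mean over the 4 groups, shifted in null females for the changed genes. Those genes had a mean of at least 20 counts. No outlying library and no length trend were simulated, so the rates hold for that setting and not for the real libraries. The authors' normalized and comparison tables were not used.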

Additional observations from a re-analysis of the deposited data

Results flagged for a closer look

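The difference for pgant4, at -2.78, was listed because the test of the difference between the sexes passed its threshold, with an edgeR adjusted p of 0.0483. In females pgant4 fell and in males it rose, with no overlap between the genotypes in either sex. Counts were at most 38 in any library.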

How the results depend on the processing

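DESeq2 called 27 genes in the difference, limma voom with quality weights 13, no filter 2, and leaving out 1 library 0 to 3. The unadjusted p under 0.05 gave 1319 higher and 1010 lower genes by voom, and 537 higher with total counts. With 1 library left out it gave 483 to 1407 higher and 217 to 768 lower. Correlations of deviations from the group means were -0.167 to 0.259 over 18 pairs of same-numbered libraries, 8 of them over 0.1. Over 36 pairs of other numbers they were -0.332 to 0.253, also with 8 over 0.1. With the replicate number as a block, edgeR called 0 genes. At an unadjusted p under 0.05 it gave 1201 higher and 793 lower, against 864 and 433 without the block. The 6 pairs of replicate 1 libraries had correlations of 0.168 to 0.233. The block called Obp83a in both sexes, at -0.84 and -1.45, and 10 muscle genes lower in females. The median over all genes was -0.00 by DESeq2 and RLE, 0.01 by voom, 0.05 with no filter, -0.05 with total counts and -0.01 to 0.04 with 1 library left out.

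Voom moved the class median to 0.25 for cytosolic ribosomal proteins, 0.18 for small nuclear RNAs and 1.87 for testis genes. With no filter, members with low counts enter the list, and the median was -0.68 for Tweedle, 0.05 for UDP-glycosyltransferases and -0.47 for accessory gland genes. Class means were -0.64 for Tweedle and -0.02 for muscle. A mean of at least 20 counts gave -0.44 for accessory gland and 0.61 for testis genes. Subtracting the length trend, with all libraries and then without null female library 1, gave 0.18 and 0.06 for cytosolic ribosomal proteins and 0.14 and 0.06 for the respiratory chain. It gave 0.11 and 0.04 for glutathione S-transferases, 0.26 and 0.26 for methionine genes, and 0.20 and 0.22 for odorant-binding proteins. It gave -0.08 and -0.04 for ecdysone and -1.16 and -1.29 for accessory gland genes. The second form gave -0.37 for Turandot and 0.10 for UDP-glycosyltransferases. The causes of these shifts were not tested.

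Leaving out 1 library gave class medians of -1.25 to -0.62 for Hsp70, -0.62 to -0.33 for small heat shock, -0.19 to 2.20 for Turandot, -1.11 to -0.60 for accessory gland and 0.14 to 0.34 for UDP-glycosyltransferase genes. It gave 0.20 to 0.54 for cytosolic ribosomal proteins, 0.19 to 0.43 for the respiratory chain, 0.13 to 0.38 for glutathione S-transferases and 0.26 to 0.66 for methionine genes. It gave 0.08 to 0.84 for small nuclear RNAs, -0.24 to 0.95 for transfer RNAs and 3.28 to 4.41 for yolk proteins. Of 1457 values for the differences of 81 named genes, 12 changed sign, none of them called. dsx had -0.02 with total counts. Leaving out 1 library gave -0.04 to 0.17 for dsx, -1.10 to 0.74 for Nab2, -0.14 to 0.06 for msl-2, -0.89 to 1.40 for roX1, -1.13 to 2.59 for roX2, -0.19 to 3.88 for TotM, -0.34 to 2.20 for TotA and -0.12 to 2.38 for TotC. The sign turned without wild-type female library 3 for both roX genes and without null female library 1 for the Turandot genes. Of 1404 values for the 78 called changes within a sex, 74 lost the call and none changed sign. A gene called in both sexes was counted once for each sex. Even at 23648813 counts or more per library, pgant4 and most of the testis list rest on few counts, which limits their precision.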
